A study of Mus musculus with 6 samples.

Results

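Genes of T cells, natural killer (NK) cells and B cells were examined in the liver of Fra-1hep mice and of wild-type mice. The 35 genes were listed by name for their cell type, and each was read from its brightest probe on the arrays. They stand among 37119 genes and other targets with a probe. Of the 35 genes, 28 were tested, and 6 were not well above background in either genotype on any array. In Fra-1hep liver 11 of the 28 were lower at an adjusted p under 0.05 (limma, Benjamini-Hochberg adjustment over all genes tested) and 0 were higher, while 12.4% of all genes tested passed in either direction, 6.48% passed as lower and 5.95% as higher. Of the 28, 25 were above background in both genotypes, and 10 of these were lower, against 6.9% of all genes above background in both. The eleventh, Cd8a, entered the test through wild type alone, where it was higher, and its call supports nothing here. The kinase gene Zap70 was 4.04-fold lower and the granzyme gene Gzma 2.83-fold lower, and the other 9 lower genes were between 1.18-fold and 1.65-fold lower. These folds follow a background correction that adds an offset of 50 to each signal. With the scanner's processed signals ratios were larger, such as -1.11 in place of -0.41 (log2) for Ms4a1, and Gzma no longer passed (adjusted p = 0.0746).

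The samples were total RNA of whole liver from C57BL/6J mice aged 26 to 28 weeks, without treatment. In Fra-1hep mice the AP-1 subunit Fra-1, encoded by Fosl1, is overexpressed in hepatocytes only, per the series title. Which promoter drives it was not stated there or in the sample labels. Each of 5 dual-colour Agilent arrays held the RNA of 1 Fra-1hep mouse in Cy5 beside pooled control RNA in Cy3, the pool being made from 5 wild-type animals on chow. A further array held pooled Fra-1hep RNA in Cy3 beside the control pool in Cy5, and is called the pool below. Which mice the Fra-1hep pool holds was not stated. The control pool is the only wild-type sample, so its own spread between animals is not known. Every value below is a log2 ratio of Fra-1hep over wild type unless said otherwise, with the exchanged array turned to the same direction.

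Several facts of the whole series bear on these genes. The arrays of mice 2 and 3 differed by 1.11 times the difference between replicate spots of a probe, against 1.66 to 2.35 times for the other pairs of mice. They were averaged and counted as 1 sample, so n = 4 Fra-1hep samples. The Fosl1 probe never passed the scanner's flag for a signal well above background, in 0 of 6 arrays of either genotype (log2 ratio -0.07, SE 0.06, adjusted p = 0.614 in a fit with no filter on dim probes), so it does not check the labels. All 11 measured hepatocyte markers were well above background in both genotypes on all 6 arrays.

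T cells recognise antigen through a receptor that signals by way of the CD3 and zeta chains. The kinase LCK phosphorylates these chains, and the kinase ZAP-70 binds to them and passes the signal on. NK cells and cytotoxic T cells kill target cells with perforin and granzymes, and both are numerous among the lymphocytes of healthy liver. B cells signal through immunoglobulin with the chains CD79A and CD79B, and are less abundant in liver than in spleen. In RNA of whole tissue, fewer cells of a type and less RNA per cell cannot be told apart.

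Zap70 (NM_009539), the kinase of the T cell receptor that NK cells also use, had the lowest ratio of the 28 genes. It was at -2.20 in mouse 1, -2.01 in mouse 2, -1.97 in mouse 3, -2.04 in mouse 4, -1.08 in mouse 5 and -2.20 in the pool. All 6 arrays lay below 0, and mouse 5 lay nearest to 0. The fitted ratio was -2.01 (SE 0.19, n = 4, adjusted p = 8.89e-04), which put Zap70 at rank 26 from the lowest among 22848 genes. The gene has a further probe, with a ratio of -1.75 (SE 0.13) and values from -2.06 in mouse 1 to -1.28 in mouse 5. Both probes were well above background on every array in both genotypes. The call was kept under all 18 alternative settings, with ratios from -2.28 to -1.83.

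The other kinase, LCK, stood closer to wild type. Lck (NM_010693) was at -0.50 in mouse 1, -0.23 in mouse 2, -0.27 in mouse 3, -0.80 in mouse 4, 0.11 in mouse 5 and -0.37 in the pool. Its fitted ratio of -0.37 did not pass (SE 0.15, adjusted p = 0.161, 95% interval -0.71 to -0.02). Without mouse 5, the array on the other side of 0, Lck passed (adjusted p = 0.0436).

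Among the chains of the receptor itself, 2 of 3 tested genes fell. Cd3d (NM_013487) was at -0.41 in mouse 1, -0.55 in mouse 2, -0.35 in mouse 3, -0.54 in mouse 4, -0.02 in mouse 5 and -0.45 in the pool, and was 1.32-fold lower (-0.40, SE 0.10, adjusted p = 0.0352). Cd3g (NM_009850) was at -0.43, -0.29, -0.38, -0.48 and -0.17 in mice 1 to 5 and at -0.30 in the pool, and was 1.25-fold lower (-0.33, SE 0.07, adjusted p = 0.0270). Mouse 5 was the highest array for both genes, and all 6 arrays lay below 0. Cd3d lost its call without mouse 1 or mouse 4 (adjusted p up to 0.0645) and Cd3g without mouse 4 (0.0508). Cd3e (NM_007648) did not pass at -0.20 (SE 0.09, adjusted p = 0.203), at -0.15, -0.23, -0.21, -0.20 and 0.20 in mice 1 to 5 and at -0.30 in the pool. Mouse 5 alone lay above 0. In the RefSeq promoter table (GRCm38.p6), the starts of Cd3g and Cd3d lie 1.36 kb apart on chromosome 9, on opposite strands, and those of Cd3d and Cd3e 27.8 kb apart. The zeta chain gene Cd247 stayed at background in all 6 arrays, so no level was measured.

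The coreceptors CD8 and CD4 mark cytotoxic and helper T cells. Cd8a (NM_001081110) was at -0.10 in mouse 1, -0.21 in mouse 2, -0.15 in mouse 3, -0.28 in mouse 4, -0.25 in mouse 5 and -0.27 in the pool, with a fitted ratio of -0.23 (SE 0.06, adjusted p = 0.0461). Its signal cleared background in 5 of 6 arrays for wild type and in 1 of 6 for Fra-1hep. It thus passed the filter through wild type alone, which favours a lower ratio, and its call carries no support. The call ended without mouse 2, 3, 4 or 5 (adjusted p up to 0.0919). A further Cd8a probe had a ratio of -0.21. Neither Cd8b1, for the partner chain of CD8 (-0.21, SE 0.08, adjusted p = 0.151), nor Cd4 (-0.16, SE 0.06, adjusted p = 0.131) passed. Cd8b1 was at -0.07, -0.26, -0.06, -0.20 and 0.18 in mice 1 to 5 and at -0.36 in the pool, and mouse 5 alone lay above 0. Cd4 was at 0.03, 0.04, -0.06, 0.00 and -0.11 in mice 1 to 5 and at -0.30 in the pool, so that the mice lay around 0 and the pool below them. The Cd4 probes differed in mean log2 intensity, with 12.1 for the brightest and 6.45 for the further one. The further probe had a ratio of 0.06 and was well above background on 5 arrays in Fra-1hep and 1 in wild type. Which probe reads Cd4 of helper T cells was not tested.

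Of the other surface proteins of T cells, none passed the test apart from Cd2, which NK cells share. Cd2 (NM_013486), an adhesion receptor, was at -0.44 in mouse 1, -0.14 in mouse 2, -0.03 in mouse 3, -0.23 in mouse 4, -0.23 in mouse 5 and -0.50 in the pool. It was lower on every array and 1.30-fold lower in the fit (-0.37, SE 0.07, adjusted p = 0.0180), with a further probe at -0.17. It did not pass with slide as a fixed block (-0.32, adjusted p = 0.0815) or with median centring (-0.30, adjusted p = 0.0616). The scavenger-receptor proteins CD5 and CD6, which dampen receptor signalling, had ratios of -0.29 for Cd5 (SE 0.11, adjusted p = 0.141) and -0.33 for Cd6 (SE 0.11, adjusted p = 0.0940). Cd5 was at -0.47, -0.18, -0.27, -0.58 and 0.05 in mice 1 to 5 and at -0.28 in the pool. Cd6 was at -0.52, -0.42, -0.35, -0.68 and -0.06 in mice 1 to 5 and at -0.24 in the pool. Both were lowest in mouse 4 and highest in mouse 5, and both passed without mouse 5 (adjusted p = 0.0414 and 0.0236). The further Cd6 probe had a ratio of 0.02.

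Cd7, a surface protein of T and NK cells, was at -0.20, -0.46, -0.32, -0.72 and -0.29 in mice 1 to 5 and at -0.30 in the pool, below 0 on all 6 arrays. Its ratio of -0.35 (SE 0.10) missed the threshold (adjusted p = 0.0552). It passed under 7 of 18 alternatives, among them the 5 mouse arrays taken separately. The costimulatory receptors stood near wild type, Cd28 at 0.02 (SE 0.06, 95% interval -0.13 to 0.17, adjusted p = 0.902) and Cd27 at 0.12 (SE 0.06, adjusted p = 0.242). Cd28 was at 0.09, -0.02, 0.05, 0.10 and -0.11 in mice 1 to 5 and at 0.01 in the pool, and Cd27 at 0.09, -0.08, 0.12, 0.11 and 0.17 in mice 1 to 5 and at 0.14 in the pool. The dimmer Cd27 probe, well above background in wild type on 2 arrays and in Fra-1hep on 0, had a ratio of -0.25. Il7r, the interleukin-7 receptor chain of naive and memory T cells, was at -0.01 (SE 0.07, 95% interval -0.18 to 0.15, adjusted p = 0.931), with -0.28, 0.07, 0.00, -0.09 and -0.09 in mice 1 to 5 and at 0.08 in the pool. Arrays of these 3 genes lay on both sides of 0.

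Granule genes of killer cells came next. Gzma (NM_010370), encoding the tryptase granzyme A, was at -1.17 in mouse 1, -1.67 in mouse 2, -1.51 in mouse 3, -2.16 in mouse 4, -0.49 in mouse 5 and -1.65 in the pool. Every array lay below 0, with mouse 4 the lowest and mouse 5 the highest. The fitted ratio was -1.50 (SE 0.25, adjusted p = 0.00944, rank 58 from the lowest). With processed signals it was -1.96 and did not pass (adjusted p = 0.0746). The authors' deposited table holds almost the same ratios, so its outcome (adjusted p = 0.0742) is not a separate check. Gzmb (NM_013542), encoding granzyme B, was at -0.34 in mouse 1, -0.36 in mouse 2, -0.34 in mouse 3, -0.46 in mouse 4, -0.33 in mouse 5 and -0.35 in the pool. It varied little between arrays and was 1.29-fold lower (-0.36, SE 0.06, adjusted p = 0.00782).

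Gzmk, whose start lies 80.0 kb from that of Gzma on chromosome 13, did not pass at -0.21 (SE 0.07, adjusted p = 0.0861). Gzmk was at 0.10, 0.03, 0.03, 0.02 and -0.14 in mice 1 to 5 and at -0.42 in the pool, so the pool lay below every mouse. The perforin gene Prf1 was at -0.18 (SE 0.06, adjusted p = 0.103), at -0.09, 0.10, -0.46, -0.24 and -0.11 in mice 1 to 5 and at -0.20 in the pool, so that mouse 2 alone lay above 0. Nkg7, a granule membrane protein, was at -0.18 on its brightest probe (SE 0.07, adjusted p = 0.135; 0.01, -0.08, -0.12, -0.26 and -0.13 in mice 1 to 5 and at -0.24 in the pool) and at -0.58 (SE 0.08) on its other probe, which lay below 0 on all 6 arrays. With the probes of a gene averaged, Nkg7 passed (-0.38, adjusted p = 0.00958).

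**Figure D1:**
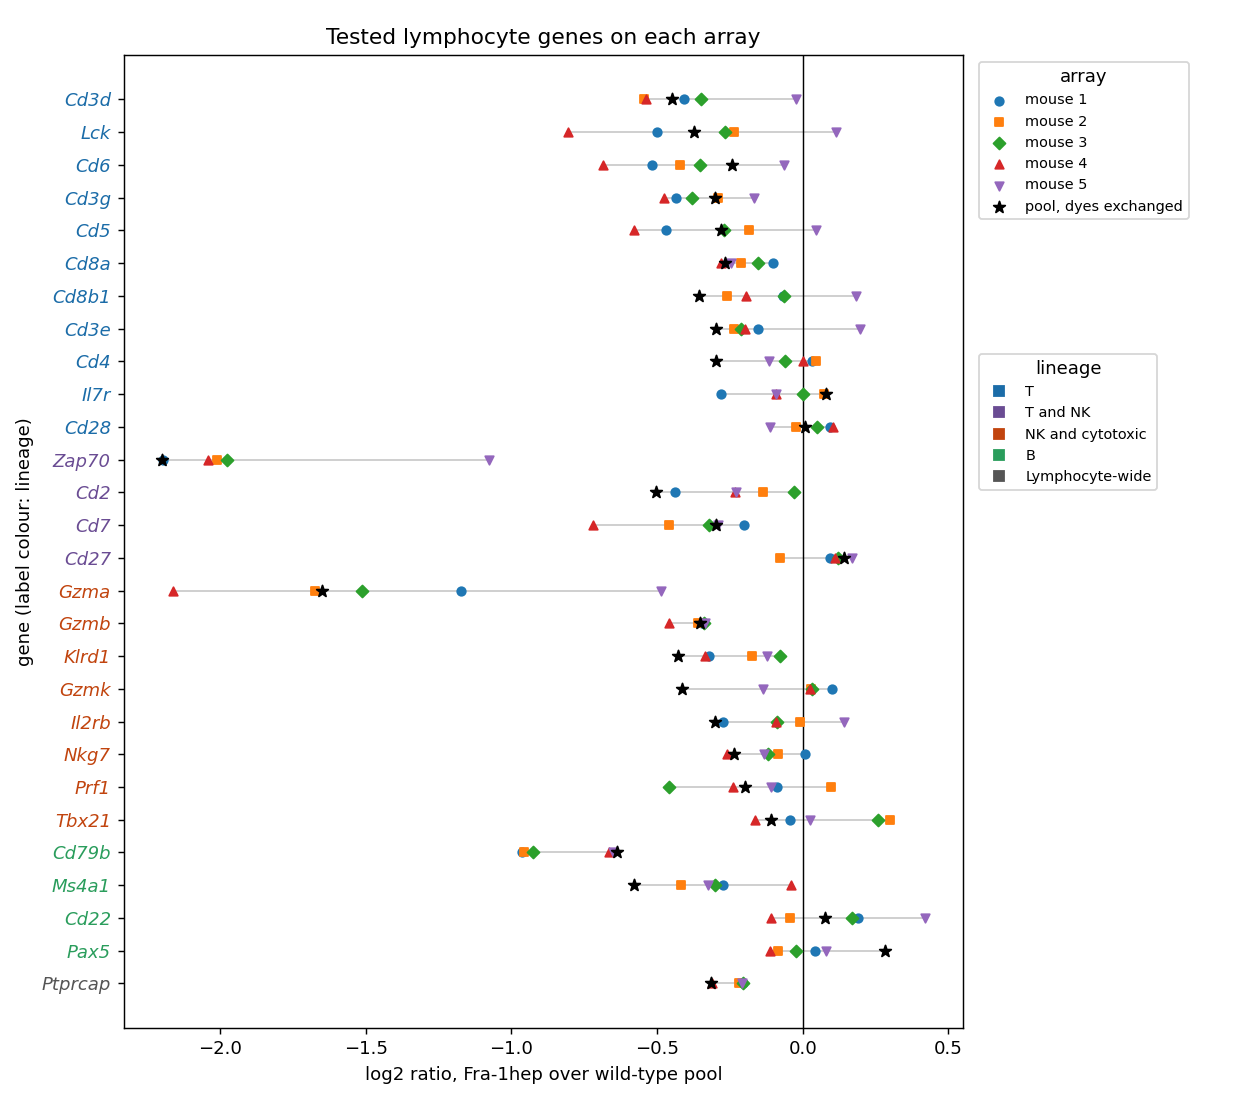
Log2 ratio of Fra-1hep over wild type (horizontal axis) of the 28 tested lymphocyte genes (rows, label colour by lineage) on each of 6 arrays, with symbols for mice 1 to 5 and a star for the Fra-1hep pool with dyes exchanged; grey lines join the lowest and highest array. Zap70 and Gzma lie farthest to the left, and mouse 5 is the array nearest to 0 or above it for Zap70, Gzma, Cd3d, Lck, Cd6 and Cd5.

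The sequences before the start sites of Gzmb, Gzma and Zap70 are shown because Zap70 and Gzma had the lowest ratios, and Gzmb held the AP-1 letters that Fra-1 dimers are known to bind. They are the 250 bases before the start (RefSeq, GRCm38.p6), 5′ to 3′ on the strand of the gene, with matches to the AP-1 site TGANTCA and the Runx site TGTGGT in capitals. Zap70 has 3 starts in that table, and the start with a Runx match is shown. The gene strand is minus for Gzma and Gzmb and plus for Zap70.
Gzmb, chr14:56262335-56262584: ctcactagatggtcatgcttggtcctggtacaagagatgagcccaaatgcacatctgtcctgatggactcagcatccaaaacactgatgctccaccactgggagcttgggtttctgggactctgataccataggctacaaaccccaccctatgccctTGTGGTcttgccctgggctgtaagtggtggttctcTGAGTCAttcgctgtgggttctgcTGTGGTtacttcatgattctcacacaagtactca
Gzma, chr13:113100982-113101231: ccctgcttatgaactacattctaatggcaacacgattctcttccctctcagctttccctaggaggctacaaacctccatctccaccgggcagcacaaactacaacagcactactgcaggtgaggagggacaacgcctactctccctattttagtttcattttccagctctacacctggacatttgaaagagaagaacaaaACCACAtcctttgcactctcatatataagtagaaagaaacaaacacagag
Zap70, chr1:36764265-36764514: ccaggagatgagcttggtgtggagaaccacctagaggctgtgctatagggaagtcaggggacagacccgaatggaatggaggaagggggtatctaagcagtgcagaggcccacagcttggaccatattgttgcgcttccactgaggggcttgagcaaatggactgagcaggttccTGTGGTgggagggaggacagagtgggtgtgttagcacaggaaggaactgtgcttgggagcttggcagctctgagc

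Gzmb held the AP-1 letters once, 58 bases before the start, and the Runx letters 93 and 34 bases before it, with no overlap. Gzma held the Runx letters on the opposite strand, ACCACA, 50 bases before the start, and the Zap70 start shown held them 75 bases before. Of 35 genes, 23 had an entry, with 27 starts in all. AP-1 letters were in 1 of the 27 windows (Gzmb) and in 6.75% of 32851 windows of the same length over all genes. Runx letters were in 10 of 27 windows, from 9 genes, and in 14.0% of all windows. Both strands were searched, also for 4 further motifs. The Ikaros letters TGGGAA were in 9 of 27 windows and 21.6% of all, the T-box letters AGGTGTGA in 1 (Nkg7) and 1.12% of all, and the Ets letters CCGGAAGT and the NF-κB letters GGGANTTCC in 0 of 27 and in 2.88% and 1.43% of all. A match describes letters and not a bound site.

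Of 4 NK receptor genes 1 was measured and 3 were too dim. Klrd1 (NM_010654), the CD94 chain of inhibitory and activating NK receptors, was at -0.32 in mouse 1, -0.17 in mouse 2, -0.08 in mouse 3, -0.34 in mouse 4, -0.12 in mouse 5 and -0.43 in the pool. It was below 0 on all 6 arrays and 1.25-fold lower (-0.33, SE 0.07, adjusted p = 0.0215), but did not pass with slide as a fixed block (-0.32, adjusted p = 0.0635). Klrk1 (NKG2D), Klrb1c (NK1.1) and Ncr1 (NKp46), used as markers of NK cells, and Eomes, a T-box factor of NK cells, were not well above background on any array. Tbx21, the other T-box factor, was above background on 5 of 6 arrays in Fra-1hep and 2 of 6 in wild type and did not pass (-0.04, SE 0.09, adjusted p = 0.803). It was at -0.04, 0.30, 0.26, -0.16 and 0.02 in mice 1 to 5 and at -0.11 in the pool, on both sides of 0. Il2rb, the receptor chain for interleukin-2 and interleukin-15, did not pass either (-0.18, SE 0.08, adjusted p = 0.196), at -0.27, -0.01, -0.09, -0.09 and 0.14 in mice 1 to 5 and at -0.30 in the pool.

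In the B lineage 2 of 4 tested genes fell. Cd79b (NM_008339), the beta chain of the B cell receptor, was at -0.96 in mouse 1, -0.96 in mouse 2, -0.92 in mouse 3, -0.66 in mouse 4, -0.65 in mouse 5 and -0.64 in the pool. It was 1.65-fold lower (-0.72, SE 0.08, adjusted p = 0.00193) and kept its call under all 18 alternatives. Ms4a1 (NM_007641), encoding CD20, was at -0.27, -0.42, -0.30, -0.04 and -0.33 in mice 1 to 5 and at -0.58 in the pool, and was 1.33-fold lower (-0.41, SE 0.07, adjusted p = 0.0121). Both genes were below 0 on every array, Ms4a1 only just so in mouse 4.

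The other tested B cell genes did not pass. The inhibitory lectin gene Cd22 was at 0.11 (SE 0.10, 95% interval -0.11 to 0.33, adjusted p = 0.528), at 0.19, -0.04, 0.17, -0.11 and 0.42 in mice 1 to 5 and at 0.07 in the pool. Pax5, the factor that fixes B cell identity, was at 0.14 (SE 0.06, adjusted p = 0.215), at 0.04, -0.08, -0.02, -0.11 and 0.08 in mice 1 to 5 and at 0.28 in the pool. Both genes had arrays on both sides of 0. The Pax5 signal cleared background in 3 of 6 arrays for Fra-1hep and in 0 for wild type, so it passed the filter through Fra-1hep alone. Cd79a, the alpha chain, was above background on 1 array in Fra-1hep and 0 in wild type and was not tested, and the kinase gene Blk never cleared background. Ptprcap (NM_016933), a partner of the phosphatase CD45 in all lymphocytes, was at -0.20, -0.22, -0.20, -0.31 and -0.21 in mice 1 to 5 and at -0.32 in the pool. It was 1.21-fold lower (-0.27, SE 0.06, adjusted p = 0.0215), but did not pass with median centring (-0.18, adjusted p = 0.124).

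**Figure D2:**
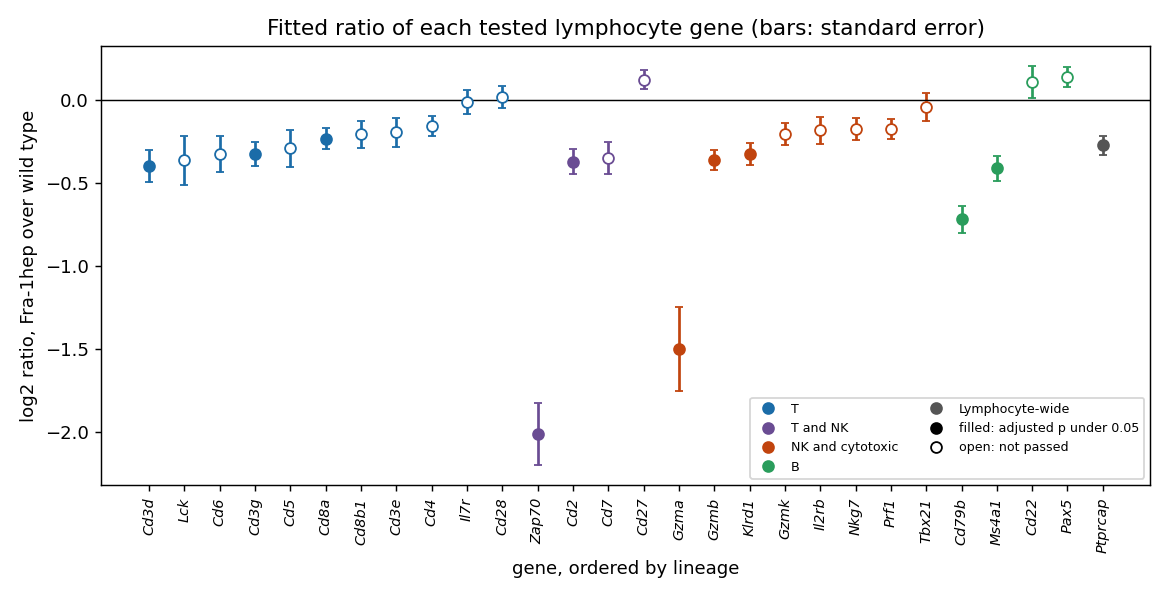
Fitted log2 ratio of Fra-1hep over wild type (vertical axis) of each tested gene, ordered by lineage. Bars give the standard error of the fit to n = 4 Fra-1hep samples and the exchanged array of pools. Filled points passed at an adjusted p under 0.05. The 11 filled points all lie below 0, with Zap70 at -2.01 and Gzma at -1.50 apart from the others.

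By lineage, 3 of 11 T cell genes, 2 of 4 genes shared by T and NK cells, 3 of 8 NK and cytotoxic genes, 2 of 4 B cell genes and the single lymphocyte-wide gene were lower, against 6.48% of all genes. Of the genes above background in both genotypes, 2 of 10 T, 2 of 4 shared, 3 of 7 NK and cytotoxic and 2 of 3 B cell genes were lower, against 6.9% of all such genes. The median ratio was -0.23 for T, -0.36 for shared, -0.19 for NK and cytotoxic and -0.15 for B cell genes, and -0.25 over the 28 genes, beside 0.01 for all genes tested. With these numbers of genes no order of the lineages can be read from the medians, and no test over genes was made. Of the 28 genes, 13 lay below 0 on all 6 arrays and 0 above, against 12.7% and 14% of all genes, and 12 of the 13 were above background in both genotypes. The median of T cell genes was -0.06 in mouse 5 and between -0.28 and -0.21 in the other mice. Without mouse 5, 6 T cell genes were lower (Cd3d, Cd3e, Cd3g, Cd5, Cd6 and Lck), and without mouse 4 there were 0. The counts of NK and cytotoxic genes and of B cell genes stayed at 3 and 2 without any 1 mouse. The arrays lay on 3 slides, of which slide 2 alone held both single mice (3 and 4) and the exchanged array. With slide as a fixed block, so that the ratio came from slide 2, 9 genes were lower, beside 5.39% of all genes. Cd2, Klrd1 and Cd8a then no longer passed and Cd6 did. With each array centred on its median in place of loess, 7 genes were lower, beside 3.61% of all genes. Cd2, Cd3g, Cd8a and Ptprcap then no longer passed.

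Markers of other blood cells moved on the same arrays. Of 15 leukocyte-wide markers 9 were lower and 0 higher (median -0.45, Ptprc at -0.58). Of 14 macrophage markers 11 were lower and 0 higher (median -0.55, Adgre1 at -0.58, Clec4f at -0.61). Of 13 neutrophil markers 10 were higher and 0 lower (median 1.76, S100a8 at 3.48, S100a9 at 3.53). Of these, 3 passed the filter through Fra-1hep alone, and 8 of the other 10 were higher. The summed signal of the tested leukocyte-wide markers was 10984 to 13523 in Fra-1hep and 14775 to 15580 in wild type over the arrays, in arbitrary units after scaling. For macrophage markers it was 49924 to 78739 against 91996 to 105248, and for neutrophil markers 38050 to 89147 against 24906 to 30464. Hepatocyte markers overlapped, with 729302 to 989443 in Fra-1hep and 712504 to 1008647 in wild type. Of the 11 tested, 2 were lower (Alb at -0.65) and 0 higher, with a median of 0.03 and 4 ratios below 0. Alb lay lowest in the pool and on both sides of 0 in the mice. The tested lymphocyte genes overlapped too, with 9062 to 13172 in Fra-1hep and 11318 to 14745 in wild type. So did the T cell genes among them (5013 to 8686 against 5330 to 9096). Ranges stood apart for NK and cytotoxic genes (1776 to 2289 against 2461 to 2639) and B cell genes (630 to 836 against 848 to 915). They also did for genes shared by T and NK cells (700 to 1061 against 1825 to 2062). A sum weighs genes by their signal, so the gaps draw largely on Gzma, Cd79b and Zap70, each lower in the fit. Cd79b alone was at 218 to 291 against 368 to 460. The coreceptor genes of CD4 and CD8 made up most of the T cell sum (3548 to 6493 against 3488 to 7016). The wild-type ranges come from the control pool alone, and the share of all genes with ranges apart was not counted. The part of the other cells in the lymphocyte values was not tested.

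**Figure D3:**
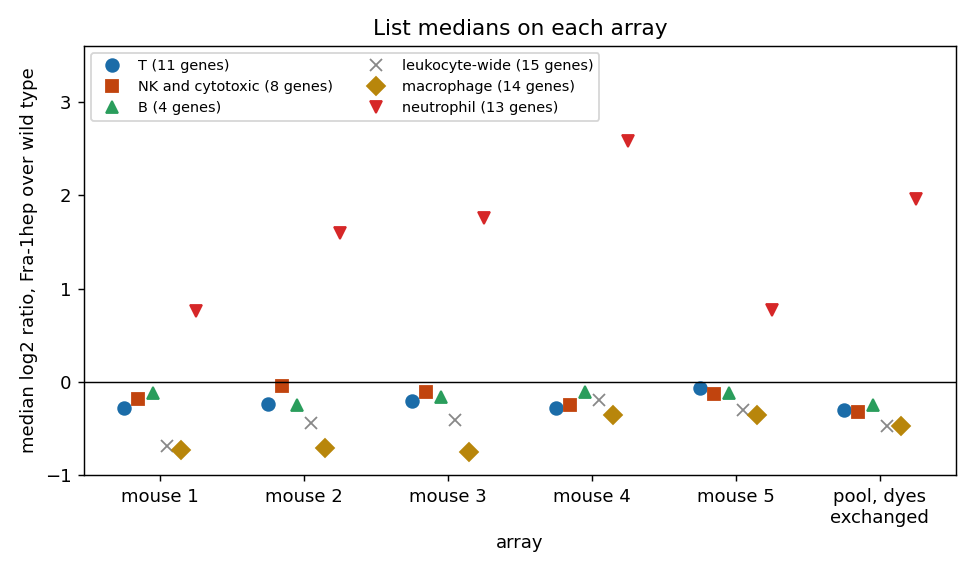
Median log2 ratio of Fra-1hep over wild type (vertical axis) of 6 gene lists on each array (horizontal axis), points spread sideways for legibility; the number of tested genes of each list is in the key. The T, NK and B cell medians lie between -0.33 and -0.05 on every array, the macrophage medians between -0.75 and -0.35, and the neutrophil medians between 0.75 and 2.58.

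Further lists held genes of the same cells and genes that feed, recruit or guide lymphocytes. Of 78 listed genes 54 were tested, of which 9 were lower and 3 higher, which is 22.2% beside 12.4% of all genes. The lower genes were 16.7% of the 54, beside 6.48% of all genes, while 5.95% of all genes were higher. In the T cell list 2 of 12 (16.7%) were lower, among them Ccr7, the lymph node homing receptor (-0.48, SE 0.08, adjusted p = 0.0115). Themis, a regulator of receptor signalling in thymocytes, was higher (0.49, SE 0.10, adjusted p = 0.0201). In the NK and cytotoxic list 1 of 13 was lower, the chemokine gene Ccl5 (-1.26, SE 0.26, adjusted p = 0.0205), and 1 higher, Zbtb16, the factor of innate-like T cells (0.74, SE 0.18, adjusted p = 0.0337). The lower share of 7.69% is near the 6.48% of all genes, so these counts say little of the list. Ccl5 was lowest in mouse 4 at -2.32 and highest in mouse 5 at -0.56, which were also the lowest and highest mice for Gzma.

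B cell genes fell in 3 of 16 cases (18.8%, beside 6.48% of all genes). They were Cd72, an inhibitory lectin (-0.72, SE 0.08, adjusted p = 0.00206), the IgM receptor gene Fcmr (-0.48, SE 0.09, adjusted p = 0.0126) and Bach2 (-0.44, SE 0.09, adjusted p = 0.0167). The adaptor gene Blnk was higher (0.28, SE 0.06, adjusted p = 0.0204). Among 13 genes that feed, recruit or guide lymphocytes, 3 were lower (23.1%) and 0 higher. Among them were Cxcl9, a chemokine induced by interferon gamma that draws activated T and NK cells (-1.72, SE 0.29, adjusted p = 0.00877) and Il2rg, the chain shared by several interleukin receptors (-0.59, SE 0.09, adjusted p = 0.00660). Cxcl9 followed Gzma in its extremes, with -2.58 in mouse 4 and -0.77 in mouse 5.

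The size of the ratios differed between ways of processing. With the offset of normexp at 16 in place of 50 and nothing else changed, the median of the 28 genes was -0.35 in place of -0.25. Of the 28, 11 were lower, beside 5.62% of all genes. With the scanner's own processed signals, to which no offset and no further loess were applied here, the median was -0.52, while that of all genes was 0.01. Cd8a was then at -1.24, Ms4a1 at -1.11, Klrd1 at -0.98, Gzmb at -0.89 and Cd3g at -0.77. Zap70 was at -2.28, Gzma at -1.96 and Cd79b at -0.92. In that setting 6 genes passed as lower (Cd2, Cd79b, Gzmb, Klrd1, Ms4a1 and Zap70), beside 3.39% of all genes. Gzma (adjusted p = 0.0746), Cd3d (0.0509), Cd3g (0.0920), Cd8a (0.0639) and Ptprcap (0.0670) did not pass.

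**Figure D4:**
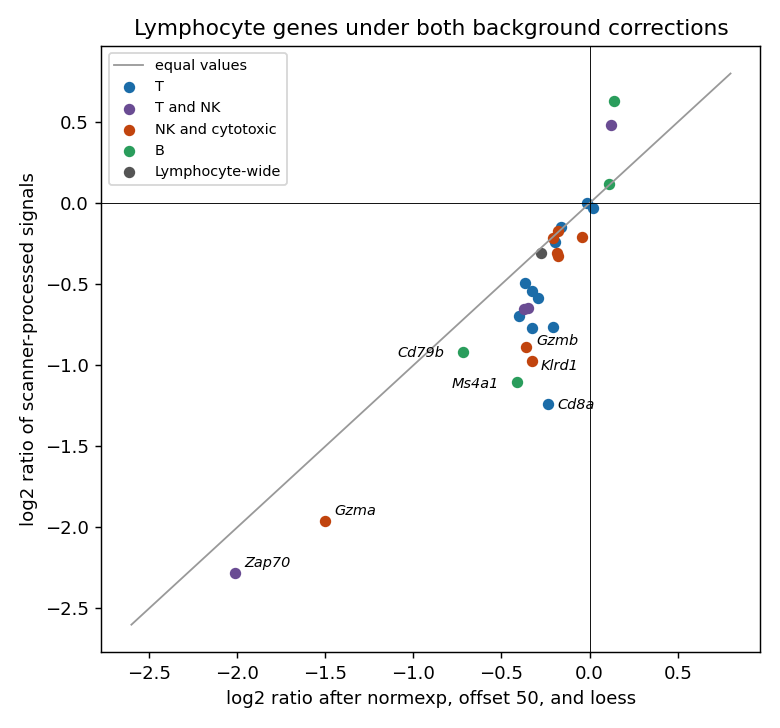
Log2 ratio of Fra-1hep over wild type of the 28 tested genes after normexp correction with an offset of 50 and loess (horizontal axis) against the ratio of the scanner's processed signals (vertical axis), coloured by lineage, with a grey line of equal values. Most genes below 0 lie under the line, such as Cd8a at -0.23 and -1.24 and Gzma at -1.50 and -1.96.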

How the data were processed

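Spots were quantified by Feature Extraction from Agilent, version 10.7 per the submitters' processing notes and 10.7.3.1 per the file headers. For each array the authors deposited spot and background intensity per channel, processed signals and their log10 ratio of red over green. The authors' deposited table holds log2 ratios, which matched the processed signals of each array to a median difference of at most 1.73e-07. RNA (100 ng, integrity above 7.8) was labelled per the labels' protocols. The design text names 6 single mice and the sample labels 5 mice and a dye-exchanged array of pools; the labels were followed.

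Median signals were corrected with normexp (offset 50) and loess in limma 3.58.1 under R 4.3.3, with control and outlier spots (190 to 301 an array) at weight 0. A gene is its brightest probe, named from its accession (26056 of 55681 probes had 1 symbol). It was tested if well above background on 3 of 5 mouse arrays in Fra-1hep or 3 of 6 arrays in wild type (22848 genes, 0 saturated spots). limma fitted genotype and a dye constant (3 residual and 4.62 prior degrees of freedom), 2-sided, Benjamini-Hochberg over all genes tested. The exchanged array weighs as much as all mice together, and its error, taken as equal to that of a mouse, is in the SE but could not be estimated from 1 array. The number of arrays limits precision. Every one of the listed genes is named, and of further lists up to 5 changed genes by adjusted p, of which some are not reported here. Members and lists were chosen with earlier results of these data known. Counts over genes above background in both genotypes were added after seeing the data. The model was run on simulated data with the arrays of mice 2 and 3 kept separate and independent noise on each array. The fit with these arrays averaged, and the control pool shared by all arrays, were not simulated.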

Additional observations from a re-analysis of the deposited data

Results flagged for a closer look

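Among the 4 counted Fra-1hep samples, 1 value stood apart from the other 3 for 4 of 32 quantities examined, while chance gives about 1 in 20. Mouse 5 was at 0.20 for Cd3e, against -0.22 to -0.15 in the others. Mouse 4 was at -0.46 for Gzmb, against -0.35 to -0.33, and at -0.31 for Ptprcap, against -0.21 to -0.20. The median of the 4 tested B cell genes was -0.21 in the averaged sample of mice 2 and 3, against -0.12 to -0.11 in the others.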

How the results depend on the processing

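In 195 fits of the 11 lower genes under the alternatives, 171 kept direction and call, 24 lost the call and 0 changed sign. Zap70, Cd79b, Gzmb and Ms4a1 lost it under none of theirs (18, 18, 18 and 17). The processed signals and the authors' deposited table hold almost the same ratios, so these alternatives are not separate checks. All lymphocyte genes that changed were lower in each setting, so changed and lower counts are equal. Their number was 11, and 6 with processed signals or with the authors' deposited table and 7 with median centring. T cell genes numbered 3, and 0 with processed signals or the authors' deposited table, 1 with median centring and 6 with no dye constant. B cell genes numbered 2, and 1 with only probes above background everywhere. Over all genes 2841 changed, and 1512 with processed signals, 1546 with the authors' deposited table, 4771 with no dye constant and 6079 with mouse arrays alone. Changed genes of the further lists numbered 12, and 21 with no dye constant and 20 with mouse arrays alone. Median centring turned the split of all changed genes from 1360 higher and 1481 lower to 2446 higher and 825 lower. Leaving out each mouse in turn gave 2298 to 2708 genes over all, 9 to 14 lymphocyte genes, 0 to 6 T, 3 NK and cytotoxic, 2 B and 11 to 13 further genes. With slide as a random block (correlation -0.02) 12 lymphocyte genes were lower. Within slide 2 alone (mice 3 and 4 and the exchanged array, chosen after seeing the data) 9 were; slides 1 and 3 hold no exchanged array. The cause of these differences was not tested.

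Genes that had not passed changed sign near 0: Il7r to 0.0042 with processed signals and the authors' deposited table, 0.00067 with 5 separate mouse arrays, 0.00018 with slide as a random block, 0.017 with slide fixed and -0.018 to 0.015 without 1 mouse in turn (above 0 without mouse 1); Cd28 to -0.028 with processed signals and the authors' deposited table; and, with mouse arrays alone, Gzmk to 0.0048, Tbx21 to 0.024 and Pax5 to -0.011. No paired analysis was possible because the mice and the pool share fewer than 2 replicate numbers. Probes not above background limit what can be said of Cd247, Klrk1, Klrb1c, Ncr1, Eomes and Blk.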
